A study of Mus musculus with 16 samples.

Results

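Neural crest cells of mouse chimeric embryos were compared between *Stat3* null and WT cells. They were all cells whose transferred label names neural crest, namely Migratory neural crest (897 cells) and Branchial arch neural crest (1056 cells), kept apart by label, out of 37841 cells analysed. Tagged *Stat3* null embryonic stem cells (ESCs) of the CD1 strain had been injected into WT CD1 blastocysts, and pooled E7.5 embryos, pooled E8.5 embryos and E9.5 embryos were dissociated, sorted for the tag and profiled by single-cell RNA sequencing from the 3′ ends of transcripts. The null cells lack *Stat3* through replacement of some of its 3′ exons by a neomycin cassette, and carry a nuclear tdTomato driven by the ubiquitous CAG promoter on a piggyBac vector. WT cells are the untagged cells of the host embryos. They were kept without any tdTomato molecule, which left out 32 of 1985 neural crest cells. All null cells descend from a cultured, drug-selected ESC line and all WT cells from the host, so genotype and cell origin cannot be told apart. The groups were E8.5 WT and E8.5 null with 2 libraries each, and E9.5 WT and E9.5 null with 4 libraries each, lettered here only as names. The methods describe 2 E9.5 embryos, fewer than the 4 libraries of each genotype. Which libraries share an embryo is not known, so they may not be independent, and p-values may measure partly technical spread. Every n of 4 given below counts libraries and not embryos, and leaving out a library need not leave out an embryo. None of the 5038 E7.5 cells carried either label, which allows a share of up to 0.0595%.

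The neural crest arises at the border of the neural plate, leaves the dorsal neural tube and spreads through the embryo. *Sox10* and *Foxd3* encode transcription factors of the premigratory and migrating crest and of its glial and neuronal descendants. Cranial crest that enters the branchial (pharyngeal) arches becomes ectomesenchyme, the source of the facial skeleton, and switches to factors such as *Twist1* and the *Dlx* genes. STAT3 is the transcription factor activated downstream of receptors that signal through gp130 and Janus kinases, and *Socs3* is a well-known target and feedback inhibitor.

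Levels are given as counts per 1000000 unique transcript molecules (CPM) of the summed cells of 1 label in 1 library. They are not scaled by transcript length and are compared between cells, not between genes. The sums held 1244256 to 5553911 molecules in migratory and 367537 to 7314075 in branchial crest. A tdTomato molecule was detected in 87.1 to 100% of the null crest cells of a library. In E9.5 migratory crest, haemoglobin and other genes of the blood marker list summed to 971, 253, 264 and 627 CPM in WT libraries A to D and to 49.0, 13.1, 11.97 and 62.7 CPM in null libraries. Their sums in branchial crest were 1001, 276, 248 and 754 CPM in WT and 59.7, 11.3, 14.6 and 55.3 CPM in null. The erythroid genes *Gata1* and *Klf1* stayed at or below 2.10 CPM in every library. Every genotype count at E9.5 was therefore repeated without WT A and WT D, an alternative added after the data were seen.

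The levels of the marker genes followed both labels, with *Sox10* less distinct at E8.5. There it averaged 125 CPM in migratory and 57.2 CPM in branchial crest of WT. *Sox10* and *Foxd3* were higher in migratory crest than in each of the other cell types with enough cells, 36 types in E8.5 WT and 40 in E9.5 WT, counting crest. In E9.5 WT migratory crest, *Sox10* stood at 199, 177, 177 and 129 CPM in libraries A to D, and at 167, 161, 191 and 136 CPM in the null libraries. The genotypes overlapped. Branchial crest had the highest *Dlx2* level of the same types, 86.2, 97.3, 92.6 and 71.1 CPM in E9.5 WT and 85.04, 87.004, 84.4 and 83.1 CPM in null. *Twist1* in branchial crest stood at 649, 604, 544 and 523 CPM in E9.5 WT and 571, 627, 651 and 619 CPM in null, and ranked 3rd among 40 WT types, after limb mesoderm among others. *Foxd3* was near 0 in E9.5 branchial crest, at 0.287, 2.34, 0.278 and 0.384 CPM in WT. *Sox10* was low there, at 3.16, 0.778, 4.17 and 4.04 CPM in WT and 5.20, 4.39, 9.74 and 4.68 CPM in null. These levels describe the labels, which were given by expression, and were not tested between labels.

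**Figure D1:**
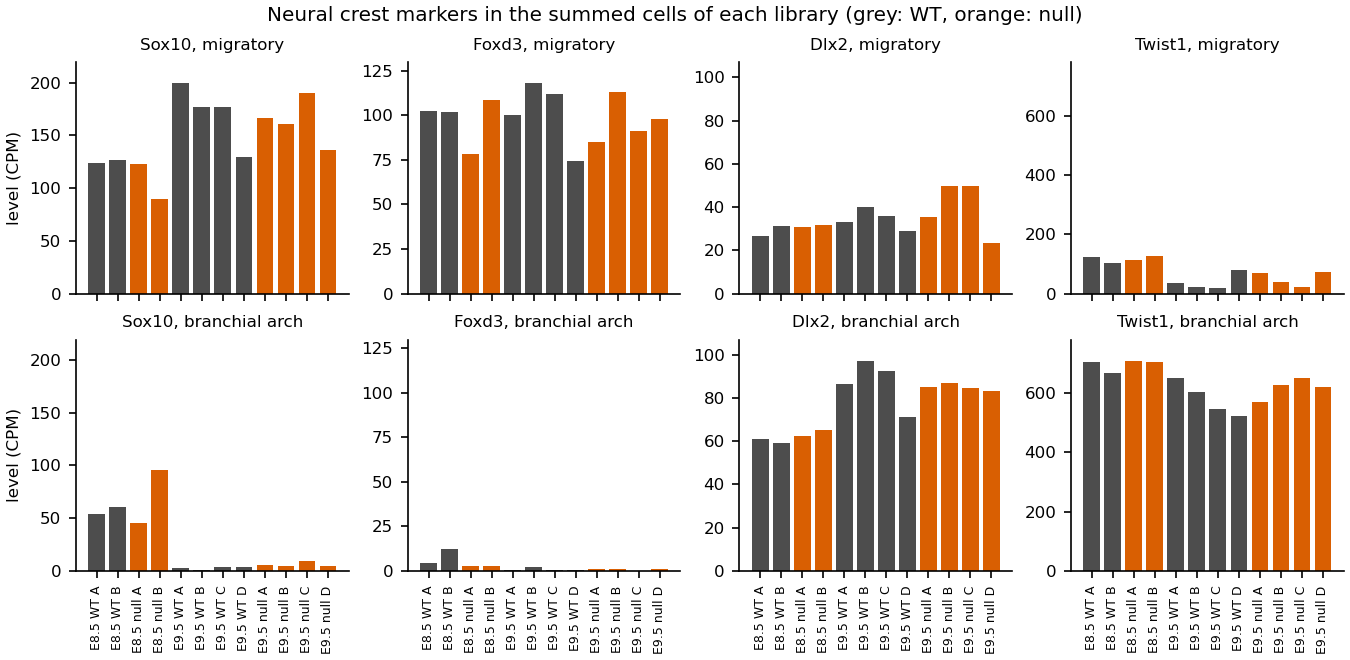
Bars give the level of *Sox10*, *Foxd3*, *Dlx2* and *Twist1* (CPM, vertical axes from 0) in the summed cells of each E8.5 and E9.5 library, with migratory crest above, branchial arch crest below, WT in grey and null in orange. *Foxd3* is higher in migratory crest and *Dlx2* and *Twist1* in branchial crest in every library, as is *Sox10* in migratory crest except in E8.5 null B, and *Sox10* in branchial crest is 9.74 CPM or less in each E9.5 library.

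Null cells contributed to both kinds of crest, and neither label differed in frequency from WT cells beyond the spread between libraries. Migratory crest made up 2.60, 3.22, 2.05 and 1.69% of the cells of E9.5 WT libraries A to D and 3.14, 2.45, 2.51 and 1.55% of the null libraries. The genotypes overlapped, and the fitted log2 difference was -0.01 ± 0.375 SE (adjusted p = 0.996). Branchial crest made up 2.76, 2.76, 3.41 and 3.67% of E9.5 WT and 4.34, 4.61, 2.45 and 3.82% of E9.5 null cells. Its difference of 0.26 ± 0.341 SE (adjusted p = 0.963) did not pass the test, in which 1 of 71 cell types was called (1.41%). At E8.5, migratory crest was 2.75 and 4.13% of WT and 2.30 and 4.45% of null cells (-0.06 ± 0.386 SE), and branchial crest 3.73 and 2.01% of WT and 2.82 and 0.960% of null cells (-0.56 ± 0.545 SE). None of 68 types was called at E8.5 by edgeR (0%), and 3 had an unadjusted p under 0.05. Both labels together made up 6.49 and 6.14% of the E8.5 WT and 5.11 and 5.41% of the E8.5 null cells, lower in both null libraries without overlap (exact permutation test, p = 0.333, the smallest possible with n = 2 each). At E9.5 they were 5.36 to 5.98% of WT and 4.96 to 7.49% of null cells, which overlapped (exact permutation test, p = 0.371, n = 4 each). The second null library, null B, held only 11 branchial crest cells. The E8.5 branchial difference moved from -0.56 to 0.017 without null B and to -1.55 without null A.

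**Figure D2:**
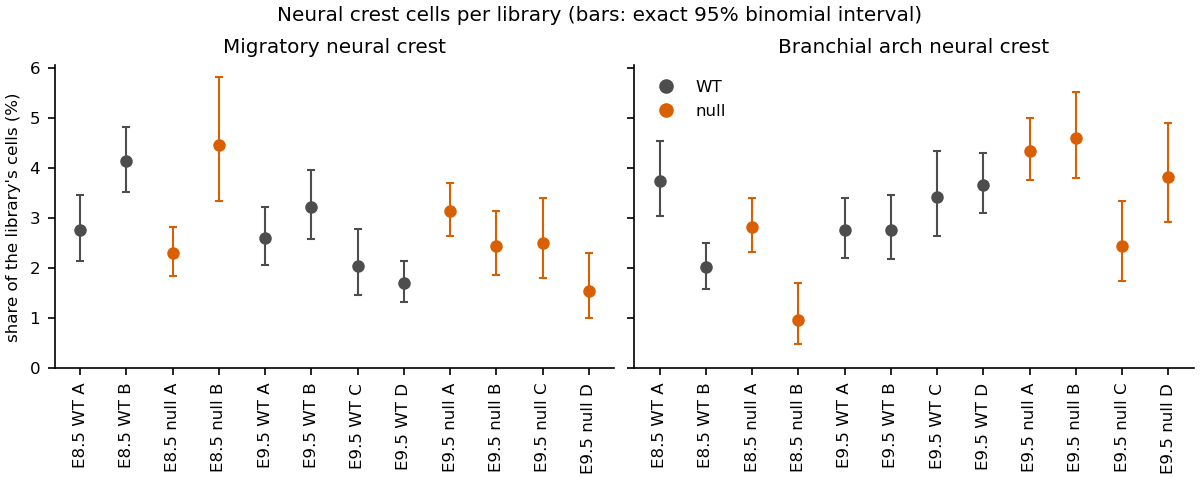
Each point is 1 library's share of cells (percent, vertical axis) labelled Migratory (left) or Branchial arch neural crest (right), with its exact 95% binomial interval, which covers counting error only, WT in grey and null in orange. At E9.5 the null points, from 1.55 to 3.14% and from 2.45 to 4.61%, overlap the WT points, and the E8.5 null B point lies at 0.960% in branchial crest.

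The split between the labels did not separate the genotypes either. Branchial cells were on average 60.9% of E9.5 null and 57.2% of E9.5 WT crest cells (exact two-sided permutation test, p = 0.571, n = 4 libraries each, smallest possible p = 0.0286). Each cell also carries the embryonic day of the reference atlas cells it matched best. E9.5 migratory crest matched atlas cells of day 8.90 in null and 8.96 in WT libraries on average (exact permutation test, p = 0.200), and E9.5 branchial crest day 9.20 and 9.21 (exact permutation test, p = 0.629). Branchial crest was the more uniform, with 84.5% of WT and 82.6% of null cells on atlas day 9.25. Migratory crest of E9.5 WT was spread over days 8.5 (19.6%), 8.75 (24.0%), 9.0 (17.7%) and 9.25 (27.7%).

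In migratory crest at E9.5, 14 of 9422 genes were called between null and WT (0.149%), which means an adjusted p under 0.05 and a log2 fold change over 1 in size. Of these, 10 were lower (0.106% of genes tested) and 4 higher in null cells (0.0425%). In branchial crest 18 of 9605 genes were called (0.187%), 7 lower (0.0729%) and 11 higher (0.115%). The WT and null libraries of each label come from the same embryos, so the values of the 2 labels are given side by side. Every called gene had all 4 null libraries on 1 side of all 4 WT libraries, as did 4.11% of all genes tested in migratory and 4.05% in branchial crest. The migratory count was 8 without WT C or null A and 9 without WT A or null D. Summing both labels per library called 22 of 10481 genes (0.21%), and 14 without null A.

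The imprinted genes *Grb10* and *H19* fell in null migratory crest, and *Grb10* in null branchial crest too. *Grb10* (chromosome 11, 11930508 to 12038683, minus strand, GRCm38) encodes an adaptor that restrains growth factor receptor signals. In migratory crest it stood at 549, 573, 512 and 472 CPM in WT and at 5.76, 38.997, 3.10 and 11.3 CPM in null (log2 fold change -5.25 ± 0.56 SE, adjusted p = 0.0321). In branchial crest it stood at 392, 376, 356 and 355 CPM in WT and 3.14, 8.01, 11.8 and 9.09 CPM in null (log2 fold change -5.70 ± 0.25 SE, adjusted p = 6.05e-05). No null library came near a WT library. The branchial call held without each library in turn. The migratory call held when null B, the highest null library, was left out, and was lost without any other library (adjusted p 9.07e-12 to 0.15 over all omissions). *H19*, a non-coding RNA of chromosome 7 (142575529 to 142578143, minus strand), fell in migratory crest from 323, 228, 261 and 238 CPM in WT to 5.04, 3.09, 2.22 and 13.7 CPM in null (log2 fold change -5.71 ± 0.30 SE, adjusted p = 8.71e-05). Branchial crest held 255, 202, 259.7 and 347 CPM in WT and 3.14, 7.06, 17.4 and 82.04 CPM in null, with null D closest to WT, and was not called (log2 fold change -3.45 ± 0.86 SE, adjusted p = 0.368). *Igf2*, the growth factor gene beside *H19*, was higher in null cells in both labels, from 53.4, 36.4, 57.03 and 42.7 to 106, 78.4, 85.999 and 77.96 CPM in migratory and from 71.3, 69.7, 64.5 and 83.97 to 145, 111, 140.4 and 173 CPM in branchial crest. Its log2 fold changes of 0.90 (adjusted p = 0.00438) and 0.97 (adjusted p = 0.000859) passed the adjusted p but not the fold threshold. Of the imprinted gene list, 27 of 36 were tested in migratory crest, where *Grb10* and *H19* were called lower and none higher, beside 0.149% of all genes called, and 29 in branchial crest, where *Grb10* was called lower and none higher, beside 0.187%. The list medians were 0.01 and 0.04 on the log2 scale against 0.00 over all genes. *Impact* of the list was higher in null branchial crest by adjusted p alone (0.70, adjusted p = 0.00227). The list does not hold every imprinted gene. *Zdbf2* and *Igf2os*, described below, are outside it, as is the amino acid transporter gene *Slc38a4*, named after its values were seen, which was higher in null cells of both labels by adjusted p alone (0.83, adjusted p = 0.013, and 0.86, adjusted p = 0.000152).

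*Cwc22* and *Zdbf2* rose in null cells of both labels. *Cwc22* (chromosome 2, 77881159 to 77946375, minus strand) encodes a spliceosome protein that loads the exon junction complex. It stood at 42.1, 43.6, 38.2 and 36.7 CPM in migratory WT and 173, 164, 198 and 163 CPM in null (log2 fold change 2.11 ± 0.10 SE, adjusted p = 2.28e-11). The branchial values were 43.1, 29.97, 40.6 and 34.97 CPM in WT and 187, 155, 137 and 153 CPM in null (log2 fold change 2.10 ± 0.10 SE, adjusted p = 6.64e-12). All null libraries exceeded all WT libraries by far in both labels. *Zdbf2*, an imprinted gene that encodes a zinc finger protein, rose from 40.7, 45.7, 34.2 and 50.2 to 106, 112, 80.7 and 104 CPM in migratory crest (log2 fold change 1.22 ± 0.13 SE, adjusted p = 2.14e-05) and from 52.04, 50.98, 41.7 and 64.8 to 118, 97.1, 88.1 and 119 CPM in branchial crest (log2 fold change 1.01 ± 0.12 SE, adjusted p = 0.000261). The branchial change fell below the fold threshold without WT A, WT C, null A or null D, with a log2 fold change of 0.92 at the least. *Phtf2*, another gene higher in null cells of both labels, had log2 fold changes of 1.004 and 1.04, which dropped under the fold threshold (0.90 at the least) without WT B, WT C, null A or null D in 1 label or the other.

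A further group fell in both labels. *Akr1e1*, an aldo-keto reductase gene, went from 17.4, 18.2, 24.3 and 11.6 to 4.32, 4.25, 3.10 and 7.23 CPM in migratory crest (log2 fold change -2.003 ± 0.26 SE, adjusted p = 0.00048) and had a log2 fold change of -2.04 in branchial crest (adjusted p = 0.000194). *Pusl1*, a pseudouridine synthase-like gene, had log2 fold changes of -2.14 and -1.67, and the histone H4 gene *Hist1h4i* -2.03 and -2.03. In migratory crest the call of *Pusl1* was lost without WT C, null B, null C or null D (adjusted p up to 0.171) and that of *Hist1h4i* without null A (0.0969). *Akr1b8*, a relative of *Akr1e1*, was called lower in migratory crest (-2.56) and with both labels summed (-2.76). In branchial crest it was below the filter on low counts and was not tested. *Tpm3-rs7*, named after its values were seen, stood at 148 to 182 CPM in WT and at 78.5 to 88.03 CPM in null migratory crest (-1.03, and -0.97 at the least without WT C or WT D), while *Tpm3* had a log2 fold change of 0.42 (adjusted p = 0.0274). Histone, aldo-keto reductase and *Tpm3*-related genes have near-identical copies whose reads may be split between them, so single members of these families are uncertain.

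*Sparcl1* rose in E9.5 null cells of both labels. It encodes a secreted matricellular protein related to SPARC (chromosome 5, 104079111 to 104113733, minus strand). Branchial crest held 6.04, 12.1, 8.62 and 13.5 CPM in WT and 131, 97.3, 92.9 and 102 CPM in null (log2 fold change 3.39 ± 0.18 SE, adjusted p = 2.53e-07). The lowest null library was many times the highest WT library. In migratory crest *Sparcl1* stood at 19.5, 22.2, 14.4 and 15.1 CPM in WT and 61.04, 33.98, 65.6 and 34.6 CPM in null (log2 fold change 1.47 ± 0.23 SE, adjusted p = 0.0236). That migratory call was lost without null A or any 1 of the WT libraries (adjusted p 0.000651 to 0.129 over all omissions). At E8.5 the order in migratory crest was the opposite, without overlap. The means there were 11.2 CPM in WT and 5.51 CPM in null (log2 fold change -0.77, adjusted p = 0.993). Of all pairs of a gene tested in crest and 1 of 19 other cell types at E8.5, 17.6% were also lower without overlap. The difference between the labels was not tested.

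**Figure D3:**
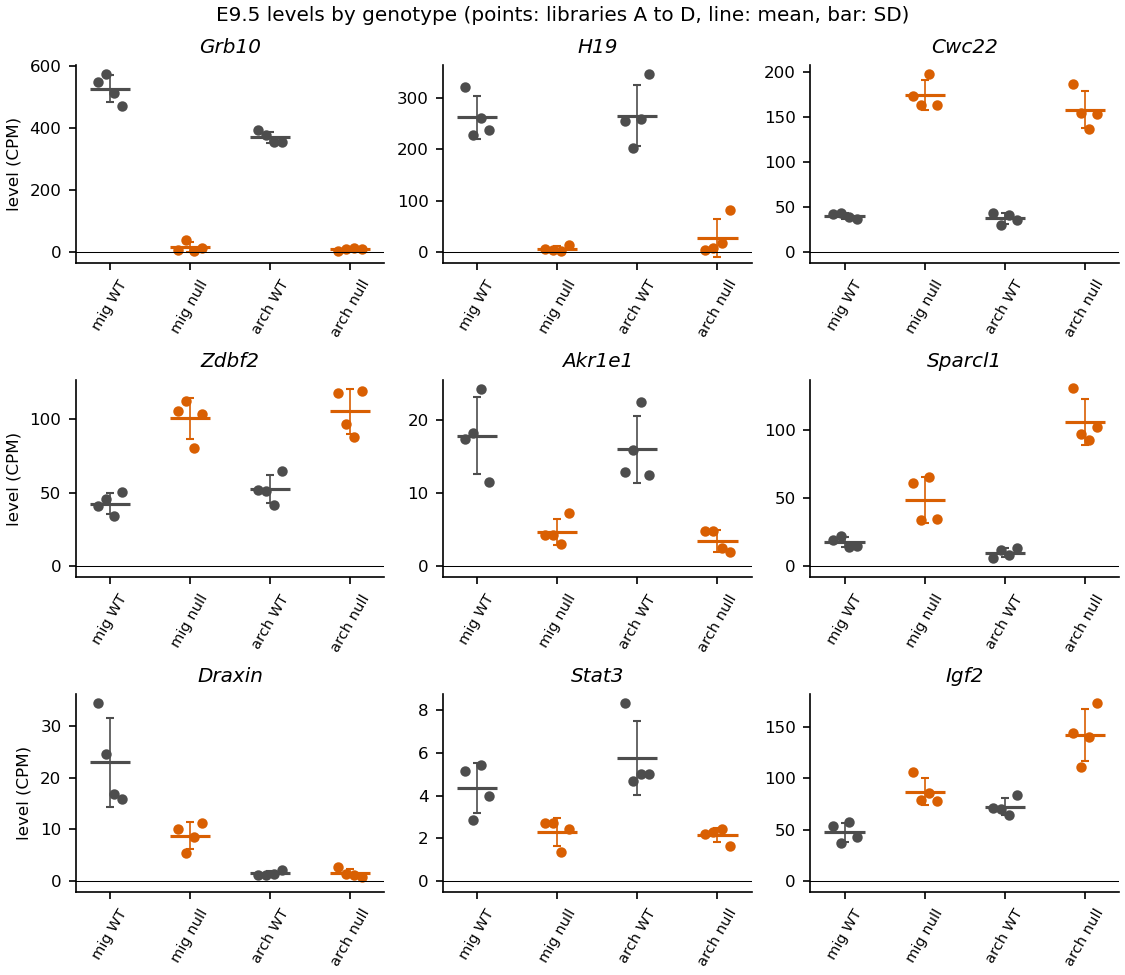
Each panel gives 1 gene's level (CPM, vertical axes) at E9.5 in WT (grey) and null (orange) libraries of migratory (mig) and branchial arch (arch) crest, with 1 point per library, the mean as a line and the SD as a bar (n = 4). *Grb10* lies at 39.0 CPM or less in every null library, *Cwc22* at 137 CPM or more, and *Sparcl1* at 92.9 CPM or more in null branchial crest.

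*Draxin* and *Mgll* were called in migratory crest. In branchial crest both were below the filter on low counts and were not tested. *Draxin* encodes a secreted guidance protein that repels axons. It stood at 34.5, 24.7, 16.9 and 15.9 CPM in WT and 10.1, 5.41, 8.42 and 11.3 CPM in null (log2 fold change -1.43 ± 0.26 SE, adjusted p = 0.0274). All null libraries were below all WT libraries, with the WT libraries spread widely. At E8.5 the order was the opposite, at 9.93 and 6.59 CPM in WT and 13.7 and 14.6 CPM in null (log2 fold change 0.82, adjusted p = 0.909), and the interaction with stage did not pass (-2.25, adjusted p = 0.414). At that stage 14.7% of pairs of a gene tested in crest and another cell type were higher without overlap. The call held only without WT C or WT D (adjusted p 0.00791 to 0.124 over all omissions). *Mgll*, which encodes monoacylglycerol lipase, went from 11.6, 5.72, 13.4 and 6.38 to 1.80, 2.70, 3.10 and 1.61 CPM (log2 fold change -2.005 ± 0.36 SE, adjusted p = 0.0148) and lost its call without WT A, WT C or null A (up to 0.147). With both labels summed *Mgll* was also called lower (-2.06, adjusted p = 0.0166), a call lost without WT A, WT C, null A or null D.

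In branchial crest, *Fam196b* and *Trhde* were the other genes with large rises. *Fam196b* had no molecule in any WT library and stood at 5.74, 4.39, 4.87 and 9.64 CPM in null, at least 29.7-fold higher against a floor of 3 molecules over the WT group. In migratory crest it was again without a molecule in WT and at 2.70, 4.25, 2.66 and 8.04 CPM in null, at least 12.3-fold higher. *Trhde*, which encodes a peptidase that degrades thyrotropin-releasing hormone, had 6 WT and 105 null molecules in branchial crest, a ratio of 13.9 (95% counting interval 6.19 to 38.8). Its mean in migratory crest was 0 CPM in WT and 3.06 CPM in null. With both labels summed *Trhde* was called higher (4.14, adjusted p = 0.000534). *Zfp979* (2.07), the mitochondrial iron-sulfur protein gene *Cisd3* (1.71), *Dph7* of diphthamide synthesis (1.11), *Igf2os* (1.29) and, named after its values were seen, the phosphatidylcholine transfer protein gene *Pctp* (1.05) were also called higher. *Zfp979* belongs to a family of near-identical zinc finger genes, and *Igf2os* runs antisense to *Igf2*. The methionine sulfoxide reductase gene *Msrb2* (-1.64) and the cell surface gene *Mxra8* (-1.06) were called lower. The calls of *Igf2os*, *Mxra8* and *Pctp* were each lost in most omissions of 1 library (adjusted p up to 0.158) and that of *Dph7* without WT D (0.0756). *Vim*, the intermediate filament gene of mesenchyme, went from 156, 151, 192 and 173 to 122, 126, 130.3 and 135 CPM, a log2 fold change of -0.39 (adjusted p = 0.0215) below the fold threshold. It was the 1 member of 22 tested cadherin and matrix genes that passed the adjusted p, and no longer passed without WT C, WT D, null A or null B (adjusted p up to 0.163).

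*Stat3* itself (chromosome 11, 100885098 to 100939540, minus strand) was detected at a few CPM in crest of both genotypes. The sequenced 3′ ends lie downstream of the deleted exons, so its level does not check the deletion. Branchial crest held 8.34, 4.67, 5.004 and 4.996 CPM in WT and 2.19, 2.29, 2.43 and 1.65 CPM in null (log2 fold change -1.41 ± 0.30 SE, adjusted p = 0.0223). Library WT A was the highest, and the call was lost without WT A, null A, null B or null D (adjusted p 0.0287 to 0.162 over all omissions) and without WT A and WT D together. *Stat3* stood at 18.4 CPM in E9.5 WT erythroid cells, and WT A had the highest blood marker sum. The part of blood transcripts in this value was not tested. Migratory crest held 5.13, 2.86, 5.46 and 3.99 CPM in WT and 2.70, 2.70, 1.33 and 2.41 CPM in null, below the filter on low counts. No other member of the STAT3 pathway list was called among 24 tested in branchial and 20 in migratory crest. Of all genes tested, 0.187% and 0.149% were called. The list medians were -0.04 and -0.03. *Socs3* had log2 fold changes of 0.02 (adjusted p = 1.00) in migratory and 0.31 (adjusted p = 0.915) in branchial crest. The values of the receptor subunit *Il6st* were 0.22 and -0.12, and those of the kinase *Jak1* -0.07 and 0.10, none with an adjusted p under 0.05.

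The letters TTCNNNGAA, the palindromic form bound by STAT proteins, were searched in the 250 bases before the RefSeq starts (GRCm38.p6). The letters at any 1 start of a gene were enough for it to count. They occurred at 2197 of 27025 genes (8.1%), at 579 of 8587 tested genes with a start (6.7%) and at 3 of the 26 genes called by genotype in crest for which the table has a start, out of 32 so called. The 3 were *Zdbf2* and, called with both labels summed at E9.5 and named after their values were seen, *Zfp429* (-3.36) and *Zfp458* (-1.64). The window of *Zdbf2*, the called gene of both labels with a match, is chr1:63200108-63200357 on the plus strand, at the upstream 1 of its RefSeq starts, with the match ending 233 bases before the start. The other *Zdbf2* start had no match. The window of *Socs3* is chr11:117969367-117969616 on the minus strand, with the match 145 bases before the start. They are shown to set a gene that rose in null crest beside a known STAT3 target that did not pass the test. Capitals mark the match.
Zdbf2: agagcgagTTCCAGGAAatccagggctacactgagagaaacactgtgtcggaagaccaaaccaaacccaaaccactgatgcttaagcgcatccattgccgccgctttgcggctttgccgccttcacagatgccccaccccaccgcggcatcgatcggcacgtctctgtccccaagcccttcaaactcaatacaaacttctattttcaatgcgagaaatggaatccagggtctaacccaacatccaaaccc
Socs3: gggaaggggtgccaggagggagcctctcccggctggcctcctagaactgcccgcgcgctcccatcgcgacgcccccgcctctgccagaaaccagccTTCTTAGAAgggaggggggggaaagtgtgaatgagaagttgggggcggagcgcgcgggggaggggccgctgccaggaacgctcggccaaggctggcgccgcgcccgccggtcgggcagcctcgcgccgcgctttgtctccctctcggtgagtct
A match describes the letters of the window and is not a measured binding site.

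The regulators of crest identity did not pass the test by genotype. By adjusted p alone, 0.223% of all genes tested passed in migratory and 0.5% in branchial crest at E9.5. By edgeR, no member had an adjusted p under 0.05 among the specifier factors (17 tested in each label), the migration and guidance genes (21 migratory, 13 branchial), the arch ectomesenchyme genes (17 and 30), the endothelin and arch signals (27 and 30) or the *Hox* genes (17 and 7). The medians of these lists lay between -0.34 and 0.22 on the log2 scale, against 0.00 over all genes. The log2 fold change of *Sox10* was -0.06 and that of *Foxd3* -0.08 in migratory crest (adjusted p = 1.00 and 1.00). Those of *Dlx2* and *Twist1* were -0.01 and 0.10 in branchial crest (adjusted p = 0.998 and 0.91). *Sox10*, low in branchial crest, had a log2 fold change of 0.80 there, with every null library above every WT library (adjusted p = 0.658). All 7 *Hox* genes tested in branchial crest had negative values, from -0.99 to -0.12, without 1 passing the test. The lists for S phase, for G2 and M phase, for glycolysis and hypoxia and for p53 targets also held no gene with an adjusted p under 0.05 in either label. In migratory crest, 22 of 24 G2 and M phase genes had positive values with a median of 0.11, and in branchial crest 14 of 24 with a median of 0.01. These counts of signs, and that of the *Hox* genes, were not tested.

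Some calls were lost without the WT libraries of highest haemoglobin, and without another WT library too. Without WT A and WT D, 10 genes were called in migratory crest, including 9 of the 14. *Draxin* (-1.27), *Sparcl1* (1.43), *Mgll* (-2.01), *Grb10* (-5.28) and *Zfp263* (-1.12) no longer passed. Without WT C alone, a library of low blood marker sum, 7 of the 14 were still called. In branchial crest 17 were called without WT A and WT D, including 12 of the 18. *Msrb2* (-1.49), *Dph7* (1.08), *Mxra8* (-0.93), *Igf2os* (1.49), *Pctp* (1.22) and *Stat3* (-1.18) no longer passed. In the fit without WT C alone, 13 of the 18 were still called. With both labels summed 16 were called, including 11 of the 22, and *Grb10*, *Stat3*, *Mgll*, *Cisd3*, *Dph7* and *Pctp* were among those lost. Without WT C alone, 12 of the 22 were still called. The remaining WT libraries, B and C, still had higher blood marker sums than every null library, and the part of blood transcripts in the genotype differences was not tested.

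At E8.5, with 2 libraries each, 2 of 9194 genes were called in migratory crest (0.0218%), both lower in null and both called again at E9.5. The count was 6 without WT A, 44 without null A and 26 without null B. *Akr1e1* stood at 26.7 and 22.2 CPM in WT and 2.93 and 0.635 CPM in null (log2 fold change -3.46 ± 0.39 SE, adjusted p = 0.000654), and *Hist1h4i* at 39.4 and 38.05 and 12.4 and 8.89 CPM (log2 fold change -1.77 ± 0.22 SE, adjusted p = 0.0014). The branchial label could not be tested as designed, because null B did not exceed the minimum of 15 cells. In a fit of both stages with null A as the single E8.5 null library, added after the data were seen and assuming that it varies like the other groups, *Grb10* and *Pusl1* were called among 10487 genes (0.0191%). With null B kept, in a fit of the E8.5 libraries, 15 genes were called, *Pusl1* still among them and *Grb10* not (log2 fold change -2.71, adjusted p = 1.00). With both labels summed, 6 of 10039 genes were called (0.0598%), among them *Aldh1a2*, the enzyme gene of retinoic acid synthesis. *Aldh1a2* stood at 13.4 and 12.1 CPM in WT and 27.4 and 29.4 CPM in null (log2 fold change 1.16 ± 0.18 SE, adjusted p = 0.0312), and lost its call without any 1 of the 4 libraries (adjusted p 0.108 to 0.914). *Zfp984*, *Zfp985* and *Fam196b* were the other higher genes, the first pair of a family of near-identical copies. The summed count dropped to 1 without WT A and to 0 without WT B. Branchial cells were 57.6 and 32.8% of the summed cells in WT and 55.1 and 17.7% in null. The part of this split in the summed calls was not tested.

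The null libraries of E8.5 were not alike in the genes that marked E9.5 null crest, nor in markers of other cells. Blood markers summed to 1231 CPM in null A and 302 CPM in null B in migratory crest and to 1391 and 318 CPM in branchial crest, and placode and surface ectoderm markers to 23.5 and 93.4 CPM in migratory crest. The part of other cells in the values below was not tested. In migratory crest *Grb10* was 376 and 324 CPM in WT but 12.7 CPM in null A and 275.6 CPM in null B. *H19* went the other way, at 24.8 CPM in null A and 1.28 CPM in null B. In branchial crest *Grb10* was 7.66 CPM in null A and 258.5 CPM in the 11 cells of null B. Cells of null B with a tdTomato molecule alone gave 270.1 CPM of *Grb10* in migratory crest, as against 12.8 CPM in null A. *Cwc22* did not divide these libraries, at 106 and 139.7 CPM in null against 62.3 and 67.7 CPM in WT (log2 fold change 0.92 ± 0.15 SE, adjusted p = 0.0176, below the fold threshold).

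The genotype difference in *Cwc22* was larger at E9.5 than at E8.5. The interaction of genotype and stage was 1.18 ± 0.18 SE on the log2 scale in migratory crest (adjusted p = 0.00683), the 1 gene of 10031 to pass (0.00997%). It no longer passed without E8.5 WT B (adjusted p = 0.115) or E8.5 null A (0.158). In branchial crest it was 1.79 ± 0.20 SE (adjusted p = 2.13e-05), where *Sparcl1* was the other gene of 10487 to pass (0.0191%). The *Sparcl1* interaction of 2.78 ± 0.40 SE (adjusted p = 0.0217) lost its call without E8.5 WT A, E8.5 WT B, E9.5 WT C or E9.5 null D, with adjusted p up to 1.00. E8.5 levels of *Sparcl1* in branchial crest were 16.03 and 12.3 CPM in WT and 22.4 and 16.3 CPM in null. Those of *Cwc22* were 77.9 and 73.7 CPM in WT and 94.4 and 152 CPM in null A and the 11 cells of null B. The branchial interaction rests on null A as the single E8.5 null library. With null B kept, an alternative added after the data were seen, the interaction was 1.61 for *Cwc22* (adjusted p = 0.00163) and 2.83 for *Sparcl1* (adjusted p = 0.00195). Stage is not separable from embryo pool.

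Most of these changes were also present in other cell types. At E9.5, 35 other cell types had 2 or more null and 2 or more WT libraries of over 15 cells, and 18 of them had all 4 and 4. *Grb10* was lower and *Cwc22* higher in null cells in all 35, with no overlap between null and WT libraries in any. Of all pairs of a gene tested in crest and 1 of these types, 4.98% were lower and 5.36% higher without overlap. *Tpm3-rs7* was lower without overlap in 35, *H19* in 34, *Akr1e1* in 33 and *Pusl1* in 32 types, and *Zdbf2* higher without overlap in 34. *Stat3* had the lower null mean in 35 types, without overlap in 17. Other genes differed in direction between types. *Sparcl1* had the higher null mean in 24 types and the lower in 11, with 9 higher and 1 lower without overlap. *Draxin* had the lower null mean in 25 types, 2 without overlap, and the higher in 10, 2 without overlap. *Mgll* had the lower null mean in 20 types, 2 without overlap, and the higher in 15, 1 without overlap. The difference between crest and these types was not tested.

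**Figure D4:**
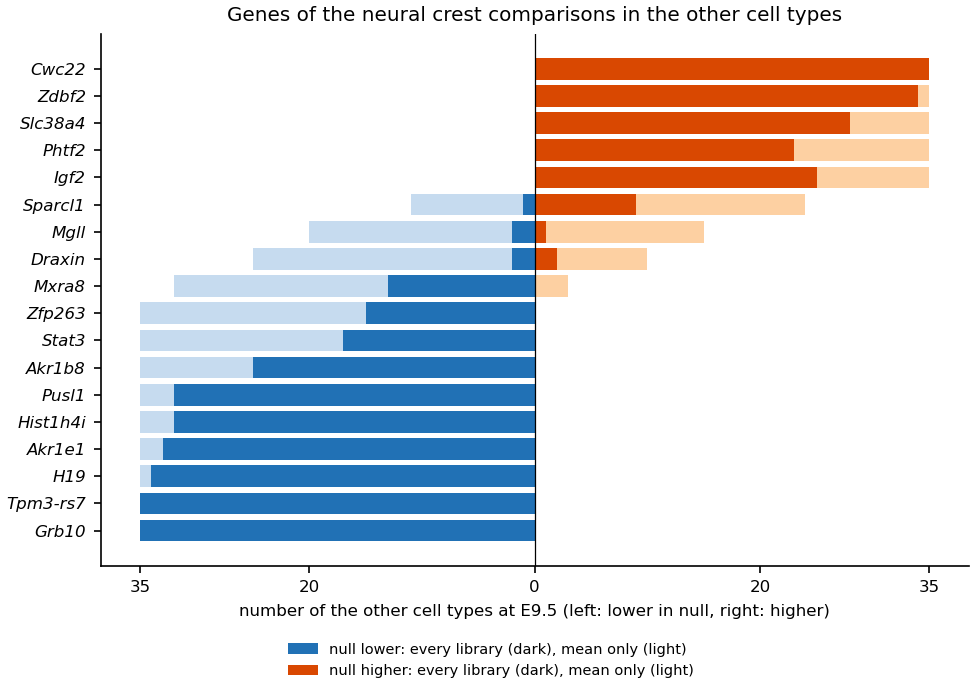
Bars count the 35 other E9.5 cell types (horizontal axis) in which each gene was lower (left, blue) or higher (right, orange) in null cells, dark where the null and WT libraries (2 to 4 of each) did not overlap and light where only the means differed. *Grb10*, *Tpm3-rs7* and *Cwc22* fill all 35 types in the dark shade, and *Draxin* and *Mgll* have few dark types.

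More genes were called between stages in WT crest than between genotypes. In migratory crest 568 of 9749 genes were called (5.83%), 422 higher (4.33%) and 146 lower (1.5%) at E9.5, and in branchial crest 669 of 9782 (6.84%), 468 higher (4.78%) and 201 lower (2.05%). Stage and embryo pool cannot be told apart here, and E8.5 rests on 2 libraries. Without E8.5 WT B the migratory count was 228. Other measures differed between the WT stages without overlap. The blood marker sum was 1370 and 1431 CPM in migratory and 1391 and 1232 CPM in branchial crest at E8.5, and at most 971 and 1001 CPM at E9.5. The 8 endothelial markers summed to 14.9 and 13.5 CPM and then 3.47 to 5.58 CPM in migratory crest, and to 21.8 and 18.4 CPM and then 5.84 to 8.34 CPM in branchial crest. The median mitochondrial share of a cell's molecules was 0.980 and 1.00% and then 1.14 to 1.65% in migratory crest, and 0.830 and 0.990% and then 1.1 to 1.48% in branchial crest. Their part in the stage differences was not tested.

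Neuronal and glial genes rose in migratory crest from E8.5 to E9.5. Of 17 tested members of that list, 13 rose and none fell, beside 4.33% of all genes tested called higher and 1.5% lower. The neural tube markers moved with them, from a sum of 99.0 and 97.7 CPM to 195, 118, 202 and 139.5 CPM without overlap, with none of the 8 at 0 in either group and *Sox2* the 1 of 6 tested that was called (1.19). The part of neural tube cells in the rise was not tested. *Fabp7*, a marker of glial precursors, rose from 9.93 and 13.2 to 105, 57.2, 75.4 and 67.8 CPM (log2 fold change 2.55 ± 0.29 SE, adjusted p = 0.000369). Every E9.5 library exceeded every E8.5 library. *Neurod1*, a factor of sensory neurons, had no molecule at E8.5 and 7.53, 16.4, 4.96 and 16.3 CPM at E9.5. *Neurod4* also had none and then 7.87, 5.002, 1.98 and 4.78 CPM. More posterior *Hox* genes rose as well, 9 of 17 tested, with *Hoxc8* at 2.82 and *Hoxc6* at 2.70, whereas *Hoxb1* fell by 1.28 on the log2 scale. *Sox10* (0.29, adjusted p = 0.143) and *Foxd3* (-0.17, adjusted p = 0.434) did not pass. Of 17 specifier factors, *Sox8* rose (2.09), and *Msx2* (-1.87), *Sox9* (-1.06) and *Ets1* (-1.09) fell. The receptor gene *Pdgfra*, used by ectomesenchyme, fell by 2.32 on the log2 scale.

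Migratory genes fell and arch genes rose in branchial crest over the same day. Mesoderm markers also moved, from a sum of 20.9 and 27.6 CPM to 40.2, 46.3, 59.5 and 99.9 CPM without overlap, with 2 of 12 at 0 at E8.5 and none at E9.5. Of 5 tested, *Foxc2* rose (1.24) and *Tbx1* fell (-1.93), and the part of mesoderm cells in the changes was not tested. Of 17 migration and guidance genes tested, 10 fell and none rose, beside 2.05% of all genes tested called lower and 4.78% higher. *Sox10* dropped from 53.5 and 60.8 CPM to 3.16, 0.778, 4.17 and 4.04 CPM (log2 fold change -4.28 ± 0.23 SE, adjusted p = 3.65e-11). *Foxd3* (-3.54), the cadherin gene *Cdh19* (-3.73), the semaphorin receptor gene *Plxna4* (-3.29) and the neuregulin receptor gene *Erbb3* (-2.38) fell with it. Of 29 arch ectomesenchyme genes 11 rose and none fell. *Barx1*, a homeobox gene of the arches and tooth-forming mesenchyme, had 2.004 and 0 CPM at E8.5 and 349.6, 245, 289.95 and 343 CPM at E9.5 (log2 fold change 7.60 ± 0.40 SE, adjusted p = 1.71e-05). The stages did not overlap. *Twist2* (3.69) and *Foxf1* (3.003) rose too. *Twist1* (-0.43, adjusted p = 0.000285) passed the adjusted p but not the fold threshold, and *Dlx2* (0.33, adjusted p = 0.0664) passed neither. *Mef2c*, which acts downstream of endothelin in the arches, fell from 213 and 245 to 31.05, 41.6, 24.2 and 44.6 CPM (log2 fold change -2.86 ± 0.21 SE, adjusted p = 8.13e-05). The matrix genes divided, with the collagen gene *Col3a1* higher (2.55) and the metalloprotease gene *Adam12* lower (-3.36). In null branchial crest at E9.5, *Barx1* stood at 421, 142, 198 and 287 CPM and *Mef2c* at 39.6, 40.4, 38.96 and 40.2 CPM, overlapping WT, and neither passed the test by genotype (adjusted p = 0.977 and 0.929).

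**Figure D5:**
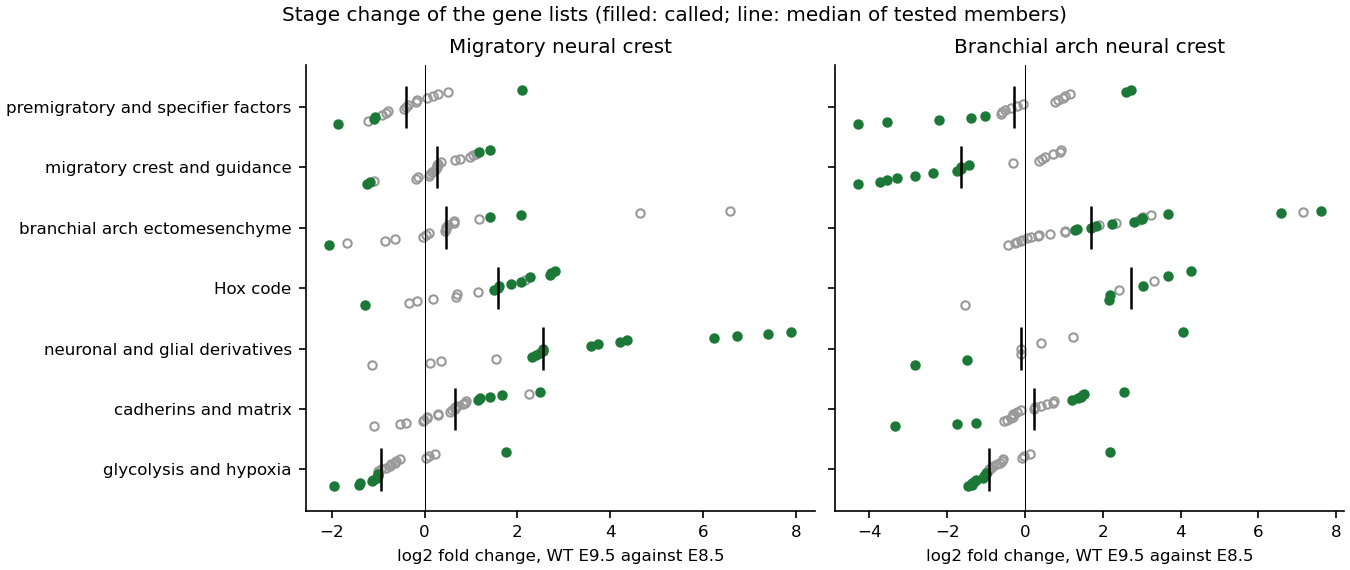
Each point is 1 gene's log2 fold change of WT E9.5 over WT E8.5 (horizontal axis), by gene list, for migratory (left) and branchial arch crest (right), filled where called, with a line at the median of the tested members. Most neuronal and glial genes lie to the right in migratory crest (median 2.55), arch genes to the right (1.71) and migration genes to the left (-1.65) in branchial crest, and most glycolysis genes to the left in both.

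Glycolysis and low-oxygen response genes were lower at E9.5 than at E8.5 in both labels. In migratory crest 8 of 21 were called lower and 1 higher, beside 1.5% and 4.33% of all genes tested. The list median was -0.94 against 0.02 over all genes. In branchial crest 9 were called lower and 1 higher, beside 2.05% and 4.78%, with a median of -0.93 against 0.03. *Ldha*, which makes the lactate dehydrogenase subunit of glycolytic cells, fell by 1.03 and 1.01 on the log2 scale, and the glucose transporter gene *Slc2a1* by 1.39 and 1.09. The other subunit gene *Ldhb* was the 1 member that rose, by 1.75 and 2.18. Of the imprinted genes, 5 of 28 rose and 1 fell (*Phlda2*, -2.39) in migratory crest, beside 4.33% and 1.5% of all genes tested. In branchial crest 8 of 29 rose and 1 fell (*Phlda2* again, -1.72), beside 4.78% and 2.05%. *Cdkn1c*, which encodes an inhibitor of the cell cycle, rose by 2.59 and 1.33. No S phase or G2 and M phase gene was called in either label.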

How the data were processed

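The deposited matrix holds counts of unique molecules per gene and cell, made by the authors with Cell Ranger on mm10 with a tdTomato sequence added. The authors' metadata give quality and doublet calls, labels transferred from a reference atlas, mitochondrial content in percent and the label score as a fraction of the nearest atlas cells, which was turned into a percent. Cells that passed quality control and were not doublets were kept. Library names do not match the sample titles beyond stage and sort, so embryo pools were not used. The members and gene lists were chosen with earlier results of these data known.

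Counts were summed per library and label (over 15 cells), and tested by edgeR 4.0.16 (R 4.3.3) quasi-likelihood with filterByExpr and TMM, by genotype within stage, by stage in WT, and for their interaction. 8178 genes (mitochondrial, ribosomal protein, predicted, haemoglobin, Y-linked, X-inactivation and tdTomato) of 29453 were left out of tests. Imprinted genes, which the paper left out of its own expression tests, were kept. Adjusted p is Benjamini-Hochberg over all genes tested, and called genes pass 0.05 and a log2 fold change of 1. Cells per type were tested likewise over types of at least 20 cells, and shares and atlas days by exact permutation. Named genes were the markers and *Stat3*, called genes without overlap between groups (up to 8 a direction at E9.5, up to 5 at E8.5, by fold change), called or most abundant list members, interaction genes, and genes called in more than 1 fit. Alternatives used DESeq2 1.42.0, other normalization, filters and cell minimums, other tdTomato rules and each library left out. Code was tested on simulated counts. With both labels summed, all 14 pairs of libraries within a group differed beyond sampling noise (chi-square per degree of freedom 2.90 to 8.26), and no barcode of a crest cell was shared between libraries. Sequences came from RefSeq (GRCm38.p6). Some genes are not reported here.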

Additional observations from a re-analysis of the deposited data

Results flagged for a closer look

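In 102 groups of 4 E9.5 libraries, 4 had 1 library far from the others, where chance gives about 1 in 20. *Vim* in null migratory crest was lowest at 536 CPM in null B. *Sox10* in null branchial crest was highest at 9.74 CPM in null C. *Phtf2* in WT migratory crest was lowest at 13.4 CPM in WT C. *Stat3* in WT branchial crest was highest at 8.34 CPM in WT A, the library with the highest blood marker sum, whose part in this value was not tested.

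The genotype difference at E9.5 differed from that at E8.5 for *Cwc22* in migratory crest (interaction 1.18 on the log2 scale), for *Cwc22* in branchial crest (1.79) and for *Sparcl1* in branchial crest (2.78), each by the edgeR test of the interaction. The migratory *Cwc22* result was lost without E8.5 WT B or E8.5 null A, and that of *Sparcl1* without E8.5 WT A, E8.5 WT B, E9.5 WT C or E9.5 null D. Both branchial results rest on 1 E8.5 null library, and passed again with the library of 11 cells kept (1.61 and 2.83).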

How the results depend on the processing

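No paired analysis was possible because the library names of the cells give no embryo pool or replicate number. Leaving out 1 library in turn gave 17 to 21 calls by genotype in E9.5 branchial crest, 8 to 14 in E9.5 migratory crest, 2 to 44 in E8.5 migratory crest, 0 to 6 with both labels summed at E8.5 and 14 to 19 at E9.5, 480 to 729 by stage in branchial and 228 to 655 in migratory crest, and 1 to 3 and 0 to 1 interactions in branchial and migratory crest. Abundance differences then ranged from -1.55 to 0.017 (branchial) and -0.56 to 0.38 (migratory) at E8.5 and from 0.16 to 0.39 and -0.19 to 0.20 at E9.5, atlas days from 0.000975 to 0.0261 (branchial) and -0.0375 to 0.0311 (migratory) at E8.5 and from -0.00977 to 0.000639 and -0.0842 to -0.0299 at E9.5, and the branchial share from -27.4 to 9.93 percentage points at E8.5 and 0.139 to 7.65 at E9.5.

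Without the filter on low counts, 41 genes were called in E9.5 branchial, 24 in E9.5 migratory and 22 in E8.5 migratory crest, 30 with both labels at E8.5, and 12 migratory interactions. With no fold threshold the counts were 48 (E9.5 branchial), 8 (E8.5 migratory), 10 and 47 (both labels, E8.5 and E9.5), and 2296 and 1823 by stage in branchial and migratory crest. Over 50 cells per library gave 8 calls in E9.5 migratory crest, 5 of them among the 14, 1 fit of both stages 1 call in E8.5 migratory crest, DESeq2 3 calls with both labels at E8.5, and over 10 cells 15 calls in E8.5 branchial crest. The sign of a near-zero migratory abundance turned at E8.5 with only tdTomato-positive null cells (0.0157, from -0.06) and at E9.5 with DESeq2 (0.0213) or library totals (0.0281). Median atlas days differed by 0.125 and 0 in branchial crest at E8.5 and E9.5 and by 0 in E8.5 migratory crest, which gave 0.0062 with only tdTomato-positive null cells. With null in place of WT libraries, 298 of the 568 genes called by stage in migratory crest were called again. Of the 568, 500 kept their direction, and genes below the filter on low counts were not counted as kept. Among named genes, the migratory stage changes of *H19* (-1.73, from 1.23) and *Nnat* (-0.42, from 1.25) turned. The causes were not tested. The branchial interaction has no value without E8.5 null A. Of the values of single named genes under these other settings, 1118 kept their side of the threshold, 114 lost and 6 gained a call. Turns of direction were counted only where the gene was called in the main or the other fit, here *H19* and *Nnat*. With 1 library left out, 1412 kept their side, 295 lost and 19 gained a call. Depth limits genes of a few CPM, such as *Stat3*.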

Other observations

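Marker lists of other cell types gave the following sums in crest, as values only. In E9.5 migratory crest the neural tube list (*Sox2*, *Pax6* and others) summed to 118 to 202 CPM in WT and 140.2 to 199.5 CPM in null libraries, the mesoderm list to 26.3 to 61.0 and 26.5 to 42.7 CPM, and the placode and surface ectoderm list to 12.9 to 42.7 and 15.1 to 35.1 CPM. Endothelial markers summed to at most 8.34 CPM and endodermal markers to at most 11.2 CPM in any E9.5 library of either label. In E9.5 branchial crest the neural tube list reached 74.7 CPM in WT and 70.2 CPM in null, and the mesoderm list 99.9 and 77.5 CPM.

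Pigment cell genes were sparse at these stages. The melanocyte list, with *Mitf* and *Kit*, summed to 13.6 to 20.3 CPM in WT and 16.4 to 20.9 CPM in null migratory crest at E9.5, and to 4.67 to 7.76 and 2.48 to 6.97 CPM in branchial crest. None of its members tested in either label (1 or 2 of 6 in each comparison) passed the edgeR test by genotype or by stage. In WT branchial crest, *Jak3* (-4.13) and *Stat6* (-1.65) fell from E8.5 to E9.5, and in WT migratory crest the receptor gene *Lifr* rose (1.32) and *Myc* fell (-1.03). The hypoxia-linked mitophagy genes *Bnip3* (-1.35 and -1.05) and *Bnip3l* (-1.01 and -1.01) fell with stage in migratory and branchial crest.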
